A study of Mus musculus with 3 samples.

Results

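The comparison between 6 h and 24 h of TGFb treatment asked which mRNAs of CH12 cells differed between an early and a late time with the cytokine present at both. CH12 is a mouse B lymphoma line that expresses surface immunoglobulin and can switch its class in culture. The 3 poly(A) mRNA libraries, 1 per group, were a control, cells given 5 ng/ml TGFb for 6 h and cells given the same dose for 24 h. The labels give no genotype change and no time for the control, and all groups were cells of the same line in the same medium. Time in culture and time with TGFb therefore cannot be told apart between 6 h and 24 h. A gene was measured when the higher of the 6 h and 24 h libraries held at least 30 counts and 1 CPM (the count scaled to library size by TMM factors), which 10713 of 24901 gene rows did. Of these, 202 genes (1.89%) were at least 2-fold higher at 24 h than at 6 h and 40 (0.373%) at least 2-fold lower. At least 1.5-fold apart were 684 higher genes (6.38%) and 227 lower genes (2.12%), and the other 9802 genes (91.5%) lay within 1.5-fold.

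TGFb binds a pair of receptor kinases, which phosphorylate Smad proteins that then enter the nucleus and regulate genes together with other factors. Some targets respond directly, and others only after a first set of regulators has been made, so that a later time can hold genes an early time does not. In B cells TGFb is known for restraining growth and for directing class switching to IgA.

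Each gene at least 2-fold apart between 6 h and 24 h was placed by its ratio of 6 h to control. Late onset means under 1.5-fold at 6 h in either direction, continued change means at least 1.5-fold in the same direction, and reversal means at least 1.5-fold in the opposite direction. The ratio of 24 h to 6 h and that of 6 h to control share the 6 h library, so the counts of the classes are a description. Late onset held 90 higher genes (0.84% of those measured) and 26 lower genes (0.243%). Continued change held 109 higher (1.02%) and 9 lower genes (0.084%), and reversal 3 higher (0.028%) and 5 lower genes (0.0467%). Early change that was held, meaning at least 2-fold at 6 h and within 1.5-fold between 6 h and 24 h, was found for 156 higher and 21 lower genes.

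**Figure D1:**
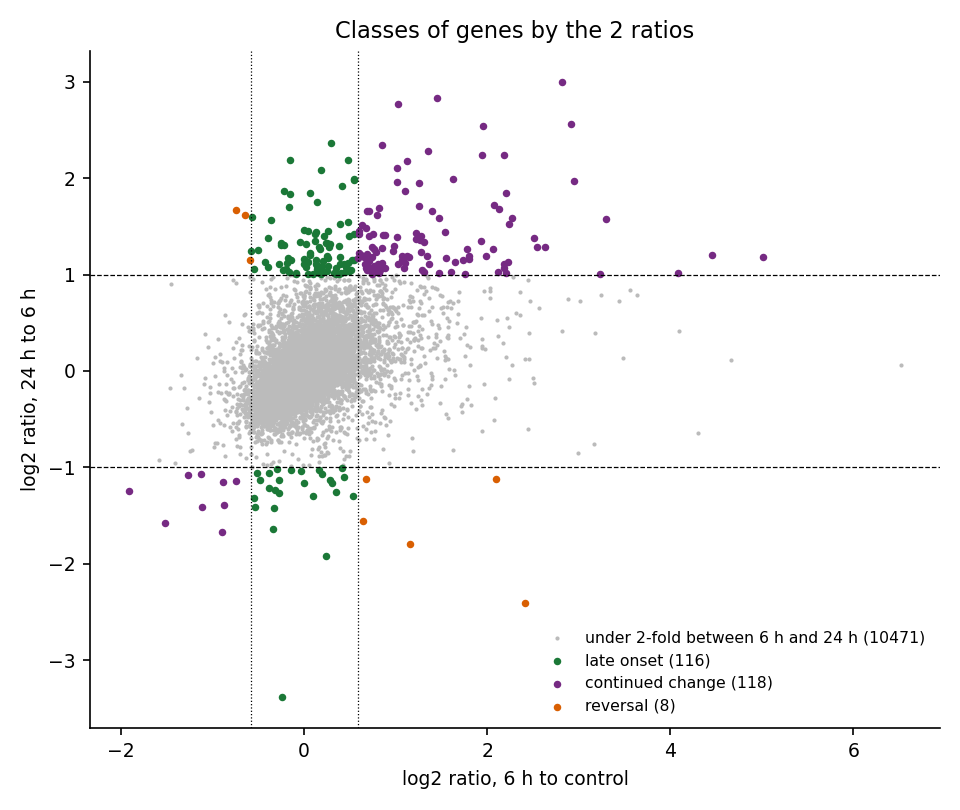
Each point is a measured gene, with the log2 ratio of 6 h to control on the horizontal axis and of 24 h to 6 h on the vertical axis (1 library each); dashed lines mark 2-fold and dotted lines 1.5-fold. The 116 late onset genes lie between the dotted lines, the 118 continued change genes fill mostly the upper right, and the 8 reversal genes lie in the corners where the ratios point opposite ways.

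With 1 library per group there was no test. Fold values carry a 95% Clopper-Pearson interval of the ratio of counts, which covers counting error only. For the ratio of 24 h to 6 h, all 242 genes had an interval clear of 1. The minimum for a measured gene and the 2-fold limit together already bring this about, so it is no evidence for single genes. An interval clear of 2-fold, which they do not bring about, was found for 76 of the 242 genes (31.4%). For the ratio of 6 h to control, on which the class rests, the interval included 1 for 16 of 118 continued change genes and 1 of 8 reversal genes. It included the 1.5-fold limit for 53 of 118 continued change, 77 of 116 late onset and 6 of 8 reversal genes, so their class could change within counting error. Library totals were 51386096 for control, 64229808 for 6 h and 27487231 for 24 h, so 1 count at 24 h was worth 0.0345 CPM against 0.0155 CPM at 6 h. Of the 242 genes, 137 (56.6%) stayed under 5 CPM in the higher library. Next to the 2-fold limit, Nrep lay just inside with 49.0 CPM at 6 h and 98.1 CPM at 24 h, and Clhc1 just outside with 0.793 and 1.59 CPM. Of 9 B cell markers, all were measured and 7 had a ratio of 24 h to 6 h above 1, with summed levels of 4218 CPM in control, 3982 CPM at 6 h and 4845 CPM at 24 h. The exceptions were Blnk, 1.03-fold lower, and Cd22, described below.

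The late onset genes that were higher at 24 h had a median fold of 2.25 over their 6 h level. Adgre1, the adhesion receptor known as a macrophage marker (chromosome 17, 57358581 to 57483529), had 2.04 CPM in control, 2.50 CPM at 6 h and 12.9 CPM at 24 h. As the class requires, only the 24 h library was high, at 5.16-fold over 6 h (4.28 to 6.25). In bulk RNA, more cells with an mRNA and more of that mRNA per cell cannot be told apart. Cd93, a surface glycoprotein of early B, myeloid and endothelial cells, had 12.6 CPM in control, 14.7 CPM at 6 h and 38.6 CPM at 24 h, which was 2.63-fold higher at 24 h than at 6 h (2.41 to 2.87). Adam19, a membrane metalloprotease (chromosome 11, 46054502 to 46147347), had 31.1, 36.9 and 92.2 CPM in the same order, 2.50-fold higher (2.37 to 2.64). Both had their high value in the 24 h library alone, as the class requires.

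Other late onset genes spanned several functions. Trp73, a transcription factor of the p53 family (chromosome 4, 154056249 to 154139875), had 11.8 CPM in control, 9.90 CPM at 6 h and 24.4 CPM at 24 h, 2.46-fold above 6 h (2.21 to 2.75). Pygm, the muscle form of glycogen phosphorylase, went from 4.17 CPM at 6 h to 11.4 CPM at 24 h, and Myh14, a non-muscle myosin heavy chain, from 8.22 to 20.5 CPM. Gbp9, an interferon-inducible guanylate-binding protein gene that shares reads with relatives, went from 5.94 to 15.9 CPM. Islr, a secreted leucine-rich repeat protein gene, stood at 2.25 and 8.51 CPM, Rnase6, a secreted ribonuclease gene, at 1.73 and 5.82 CPM, and Wfdc21, a small secreted protein gene, at 0.575 and 2.62 CPM. Control levels of these 7 genes lay within 1.5-fold of their 6 h levels, as the class requires.

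Late onset lower genes were led in level by Odc1, ornithine decarboxylase, the first enzyme of polyamine synthesis and a known Myc target (chromosome 12, 17544808 to 17551502). It had 1955 CPM in control, 1567 CPM at 6 h and 667 CPM at 24 h, 2.35-fold lower at 24 h than at 6 h (2.31 to 2.39). Most of its difference from control thus lay between 6 h and 24 h. Gclm, the modifier subunit of the enzyme that starts glutathione synthesis, had 91.1, 121 and 60.2 CPM and was 2.02-fold lower (1.91 to 2.12), just inside the limit. Tpd52, a coiled-coil protein gene, had 28.2, 23.2 and 10.6 CPM and was 2.20-fold lower (1.94 to 2.49). Cenpv, which codes for a centromere protein, had 45.1, 31.6 and 15.2 CPM and was 2.08-fold lower (1.88 to 2.31). In each of these genes the 24 h library was the lowest of the 3, as the class requires.

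Smaller late onset lower genes included signalling and receptor genes. Rarg, a retinoic acid receptor, had 8.63 CPM at 6 h and 3.86 CPM at 24 h. Gja1, a gap junction connexin, had 9.93 and 4.55 CPM, Galc, a lysosomal galactosylceramidase, 9.68 and 4.72 CPM, and Arhgdig 7.26 and 3.31 CPM. Rnd2, a small GTPase gene, had 2.69 and 0.862 CPM. Eif3j2, a copy of a translation initiation factor subunit gene, had 145 CPM in control, 123 CPM at 6 h and 11.8 CPM at 24 h, the largest ratio of the class (10.4-fold lower, 9.36 to 11.7). Its near copy Eif3j1 had 197, 125 and 187 CPM, and RSEM shares reads between the copies. Their summed level was 341.6, 247.5 and 198.3 CPM, so that the pair together was 1.248-fold lower at 24 h than at 6 h and the value of Eif3j2 alone is uncertain.

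Among the higher genes, the largest single ratio of 24 h to 6 h was in continued change. The median fold at 24 h over 6 h was 2.37 among its 109 genes, 2.25 in late onset and 3.06 among the 3 reversal genes. Continued change genes had a median of 5.79-fold over control at 24 h, a ratio under which the limits of the class set a floor. Lrig1, a membrane protein that restrains growth factor receptors (chromosome 6, 94604529 to 94700298), had 0.206 CPM in control, 1.45 CPM at 6 h and 11.6 CPM at 24 h, 8.01-fold above 6 h (6.35 to 10.2). Scel, a protein of stratified epithelia (chromosome 14, 103513061 to 103613346), had 0.926, 6.995 and 41.4 CPM, 5.92-fold above 6 h (5.31 to 6.61). Rp1l1, a photoreceptor protein gene (chromosome 14, 63992431 to 64033506), had 6.11, 47.1 and 184 CPM, 3.91-fold above 6 h (3.74 to 4.09). Both steps were several fold in these 3 genes, in the order that the class requires.

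Surface receptors and a kinase were among the others. Ccr1, a chemokine receptor (chromosome 9, 123962126 to 123968692), had 8.83, 42.7 and 128 CPM in the same order, 3.01-fold above 6 h (2.86 to 3.16). Cd7, a surface protein known from T and NK cells, had 0.988, 4.49 and 21.2 CPM, 4.73-fold above 6 h (4.10 to 5.45). Rps6ka2, a kinase downstream of Erk, had 2.04, 9.39 and 33.8 CPM, 3.597-fold above 6 h (3.25 to 3.99). St8sia1, a sialyltransferase that makes the ganglioside GD3, had 0.597, 2.32 and 13.4 CPM, and Dnah6, an axonemal dynein heavy chain gene, 1.21, 2.19 and 11.1 CPM. Itgax, an integrin chain of dendritic cells that shares reads with another gene, had 0.535, 1.46 and 10.4 CPM. All 8 ranked genes of this class and Ccr1 had their lowest level in control and their highest at 24 h, as the class requires.

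The 9 continued change genes that were lower included regulators of B cells and of secreted factors. Wnt10a, a Wnt ligand (chromosome 1, 74792019 to 74804176), had 156 CPM in control, 84.0 CPM at 6 h and 26.3 CPM at 24 h, 3.19-fold lower at 24 h than at 6 h (2.96 to 3.45). Cd22, an inhibitory coreceptor of the B cell receptor (chromosome 7, 30865404 to 30880342), had 139, 37.0 and 15.6 CPM and was 2.38-fold lower (2.15 to 2.63). For Wnt10a the later step was the larger, and for Cd22 the earlier step, which was 3.76-fold. Ehf, an Ets family transcription factor, had 42.6, 19.7 and 7.41 CPM and was 2.65-fold lower (2.29 to 3.08). Nrros, a protein that anchors latent TGFb on cells of the immune system (chromosome 16, 32142785 to 32165594), had 78.2, 35.7 and 17.0 CPM and was 2.10-fold lower (1.91 to 2.32). Mcoln2, a cation channel of endosomes and lysosomes, had 25.9, 14.0 and 6.31 CPM. The remaining 4 genes were under 5 CPM at 6 h: Slc5a9, Tnfrsf8, Cited1 and Ovol3 (with shared reads) had 1.17, 0.689, 0.896 and 0.551 CPM at 24 h.

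**Figure D2:**
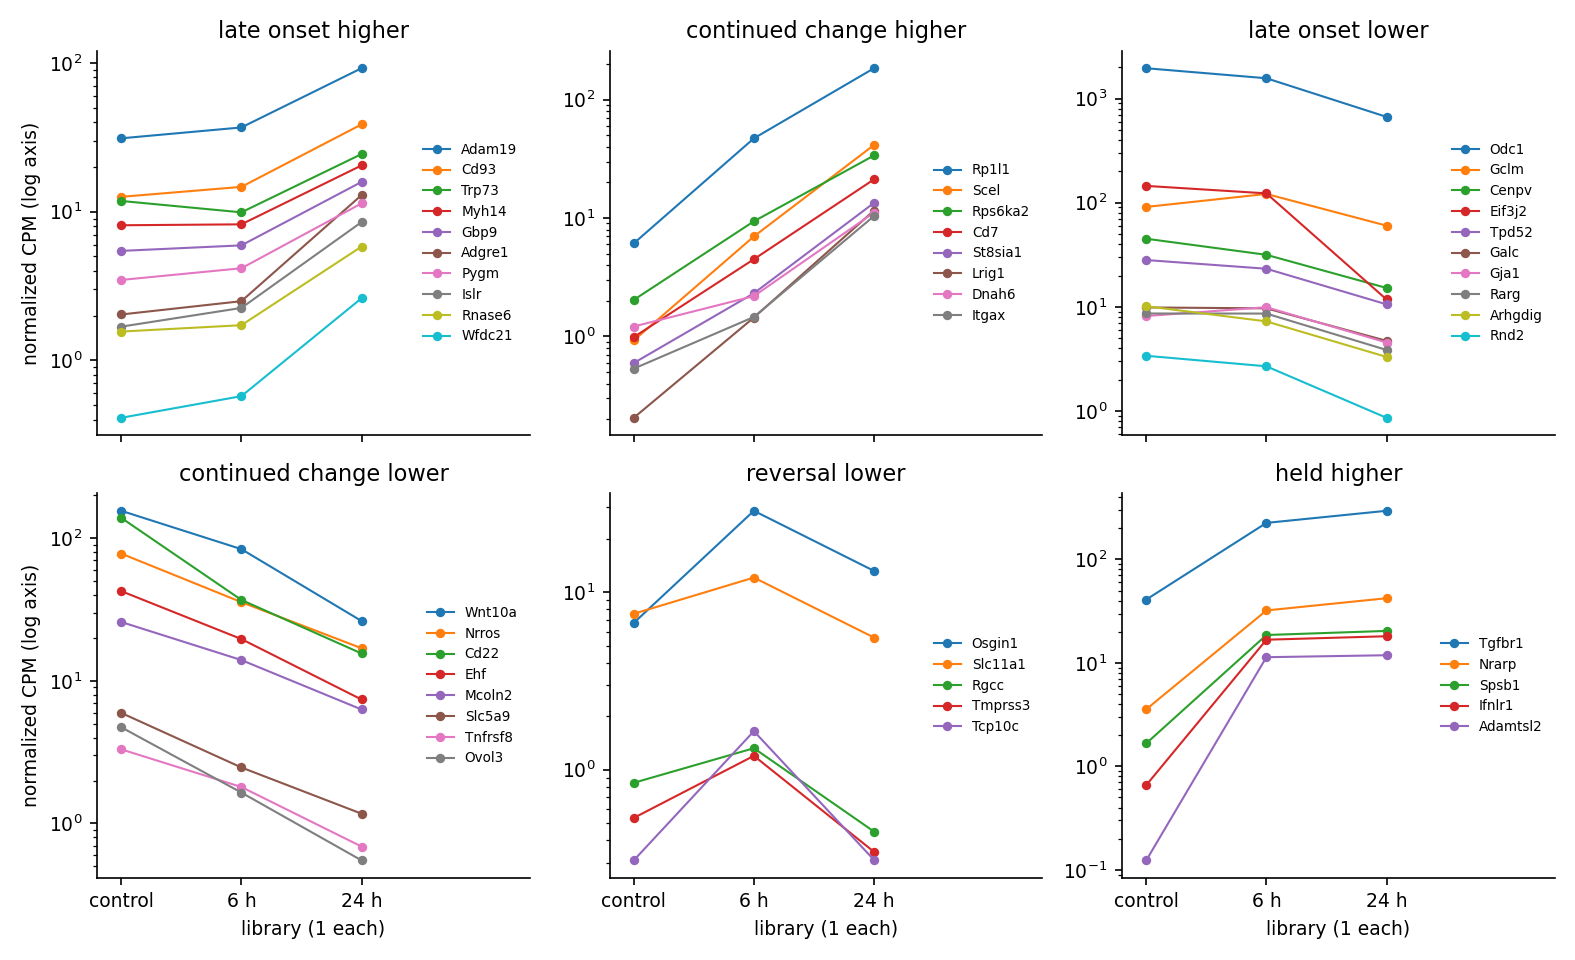
Normalized CPM on a log axis in the control, 6 h and 24 h libraries (1 each) for the ranked genes of 6 classes; each line is a gene. Late onset lines change by under 1.5-fold from control to 6 h, with Cenpv already 1.43-fold lower at 6 h. By the rules of the classes, continued lines slope in the same direction at both steps and reversal lines peak at 6 h. Held lines change by under 1.5-fold from 6 h to 24 h.

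Reversal was rare. Osgin1, an oxidative stress response gene (chromosome 8, 119425882 to 119446257), had 6.71 CPM in control, 28.7 CPM at 6 h and 13.2 CPM at 24 h. It was 4.28-fold above control at 6 h, then 2.18-fold lower at 24 h than at 6 h (1.95 to 2.44), and still 1.96-fold above control. Slc11a1, a divalent metal transporter of phagosomes, had 7.55, 12.1 and 5.55 CPM, so that its 24 h level lay below control. The other 3 lower genes rested on few counts at 24 h, with 13 counts for the cell cycle regulator Rgcc, 10 for the serine protease Tmprss3 and 9 for Tcp10c, which shares reads. The 3 higher genes were the uncharacterised models AF067061, 1700056E22Rik and B020031M17Rik, chosen with their values in view, with 9.27, 1.14 and 2.21 CPM at 24 h. Of the 242 genes, 4 lay within 1.5-fold of control at 24 h.

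Seen from the early side, 258 genes (2.44% of 10590 measured in control and at 6 h) were at least 2-fold higher at 6 h than in control and 39 (0.368%) at least 2-fold lower. Of the 258 higher genes, 91 (35.3%) stood at least 1.5-fold further from control at 24 h, 156 (60.5%) were held and 11 (4.26%) stood at least 1.5-fold nearer to control. Of the 39 lower genes, 15 (38.5%) stood further, 21 (53.8%) were held and 3 (7.69%) stood nearer. Among all measured genes, 91.5% lay within 1.5-fold between 6 h and 24 h, 6.38% were at least 1.5-fold higher and 2.12% lower. The share within 1.5-fold was thus smaller among the early genes than among all. The early genes that stood nearer to control included Rgs1, a regulator of G protein signalling in B cells, with 11.6, 26.5 and 14.9 CPM. Its relative Rgs16 was another, with 0.226, 4.46 and 2.86 CPM. Cxcr3, a chemokine receptor gene, was in this group with 0.226, 1.803 and 0.999 CPM, and Pou2f3, an Oct family transcription factor gene, had 13.6, 4.97 and 9.27 CPM. The choice of these 4 genes was made with their values in view.

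Held genes include members of the TGFb pathway. Tgfbr1 (chromosome 4, 47353222 to 47414926) codes for the type I receptor kinase, and its level was 40.9, 225 and 295 CPM, 1.31-fold above 6 h (1.27 to 1.34). Ifnlr1, a chain of the type III interferon receptor, had 0.658, 16.7 and 18.1 CPM, and its later ratio of 1.08 had an interval of 0.972 to 1.20. Adamtsl2, an extracellular protein that binds latent TGFb carriers, had 0.123, 11.3 and 11.9 CPM. Spsb1, a ubiquitin ligase adaptor known to target the TGFb receptor, had 1.67, 18.6 and 20.4 CPM, and Nrarp, an inhibitor of Notch signalling, 3.56, 32.1 and 42.1 CPM. In these 5 genes the later ratio was under 1.5-fold, as the class requires, and Tgfbr1 and Nrarp still stood 1.31-fold above 6 h. Held lower genes were Nfil3, a basic leucine zipper repressor (32.9, 12.0 and 10.6 CPM), the kinase Plk2 (48.1, 18.997 and 18.5 CPM), Lmo2, a bridging factor of transcription complexes (50.8, 23.8 and 21.7 CPM), Cited4 (13.8, 5.67 and 4.34 CPM) and the lipase gene Lipg (14.7, 6.54 and 7.20 CPM). The sign of the later ratio of Plk2 turned with scaling.

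Of 17 measured TGFb receptors, ligands and Smads, 0 were 2-fold apart between 6 h and 24 h, 14 had a ratio above 1 against 47.3% of all measured genes, and the median log2 ratio was 0.08. The median of all measured genes was -0.02, with 52.7% of ratios below 1. Ratios rose with transcript length (below), and this list had a median length of 5090 bases against 2849 bases for all. Measured genes in a bin of similar length (median 4920 bases) had a median log2 ratio of 0.06. The part of length in this list was not tested. Lrrc32, which displays latent TGFb on the cell surface, was the member furthest higher, with 11.7, 13.6 and 23.7 CPM, 1.75-fold above 6 h (1.58 to 1.94). Smad3, a receptor-activated Smad, was the member furthest lower, with 7.55, 7.28 and 4.62 CPM, 1.58-fold below 6 h (1.30 to 1.92). Smad7, the inhibitory Smad, had 28.8, 59.4 and 76.1 CPM, and Smad6, also inhibitory, 2.76, 7.94 and 9.17 CPM with a later ratio of 1.15 (0.991 to 1.34). Tgfbr2, the type II receptor, had 101, 189 and 212 CPM.

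Among 25 TGFb target genes, 0 were 2-fold higher and 1 was 2-fold lower (1.89% and 0.373% of all measured genes), and 13 had a ratio above 1. Their median of 0.02 turned negative with no minimum level. Skil, a repressor of Smad activity, had 36.8, 145 and 170 CPM, and Runx3, a transcription factor needed for IgA switching, 164, 291 and 284 CPM, where the small later difference had an interval of 0.997 to 1.05 and a sign that turned with scaling. The Id genes, which block E protein transcription factors, went different ways: Id2 had 23.2, 76.1 and 59.1 CPM, and Id3 84.9, 105 and 162 CPM, 1.54-fold above 6 h. Cdkn1a, a cyclin-dependent kinase inhibitor, had 6.995, 9.50 and 6.13 CPM.

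Genes for ribosome production and protein folding were lower together at 24 h than at 6 h. All 34 genes of the Myc and ribosome biogenesis list had a ratio below 1, with a median log2 ratio of -0.38 after one of -0.45 between control and 6 h. Only Odc1 was 2-fold lower (0.373% of all measured genes were), and 3 were at least 1.5-fold lower (2.12% of all). Myc itself had 593, 335 and 283 CPM, so its later step was 1.18-fold (1.15 to 1.22). Srm, which makes spermidine, had 575, 332 and 215 CPM, Nhp2, a subunit of small nucleolar ribonucleoproteins, 368, 242 and 155 CPM, and Fbl, the rRNA methyltransferase fibrillarin, 447, 327 and 221 CPM. These 3 genes, like Odc1, were lower at both steps.

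The list of ER chaperones and the unfolded protein response had the lowest median of all lists, -0.50, against -0.26 between control and 6 h. The ratio was below 1 for 22 of 23 measured members, and 7 passed 1.5-fold and 0 passed 2-fold downward. Over all measured genes the shares were 52.7%, 2.12% and 0.373%. Pdia6, a disulphide isomerase, had 805, 674 and 403 CPM, Sdf2l1, an ER chaperone partner, 226, 139 and 80.4 CPM, and Creld2, an ER stress gene, 145, 103 and 63.3 CPM. Chac1, which degrades glutathione and is a target of the stress factor Atf4, differed in shape, with 18.4, 25.9 and 14.6 CPM. Aminoacyl-tRNA synthetases, which charge tRNAs for translation, had 19 of 20 ratios below 1 and a median of -0.40, with Cars at 129, 118 and 75.6 CPM.

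Lists tied to metabolism and replication lay below the median of all genes by less. All 20 heat shock genes had a ratio below 1 (median -0.31), with the mitochondrial chaperone Hspa9 at 1193, 1071 and 727 CPM. Of 23 glycolysis and hypoxia genes, 21 had a ratio below 1 (median -0.27), with Ldha, lactate dehydrogenase A, at 1600, 1308 and 842 CPM and the growth factor gene Vegfa at 10.2, 6.84 and 3.96 CPM. Of 28 S phase genes, 27 had a ratio below 1 (median -0.24), with the cyclin Ccne1 at 111, 71.5 and 47.6 CPM, and of 27 G2 and M phase genes, 23 (median -0.15). None of these 4 lists had a 2-fold member. Among 18 housekeeping genes, 13 had a ratio below 1 (median -0.12, quartiles -0.30 and -0.00075), so genes chosen for stable levels lay mostly lower too. Of all measured genes, 52.7% had a ratio below 1, with quartiles of -0.19 and 0.18. Gusb was 1.54-fold lower, and Pgk1, which is also on the glycolysis list, 1.45-fold lower.

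**Figure D3:**
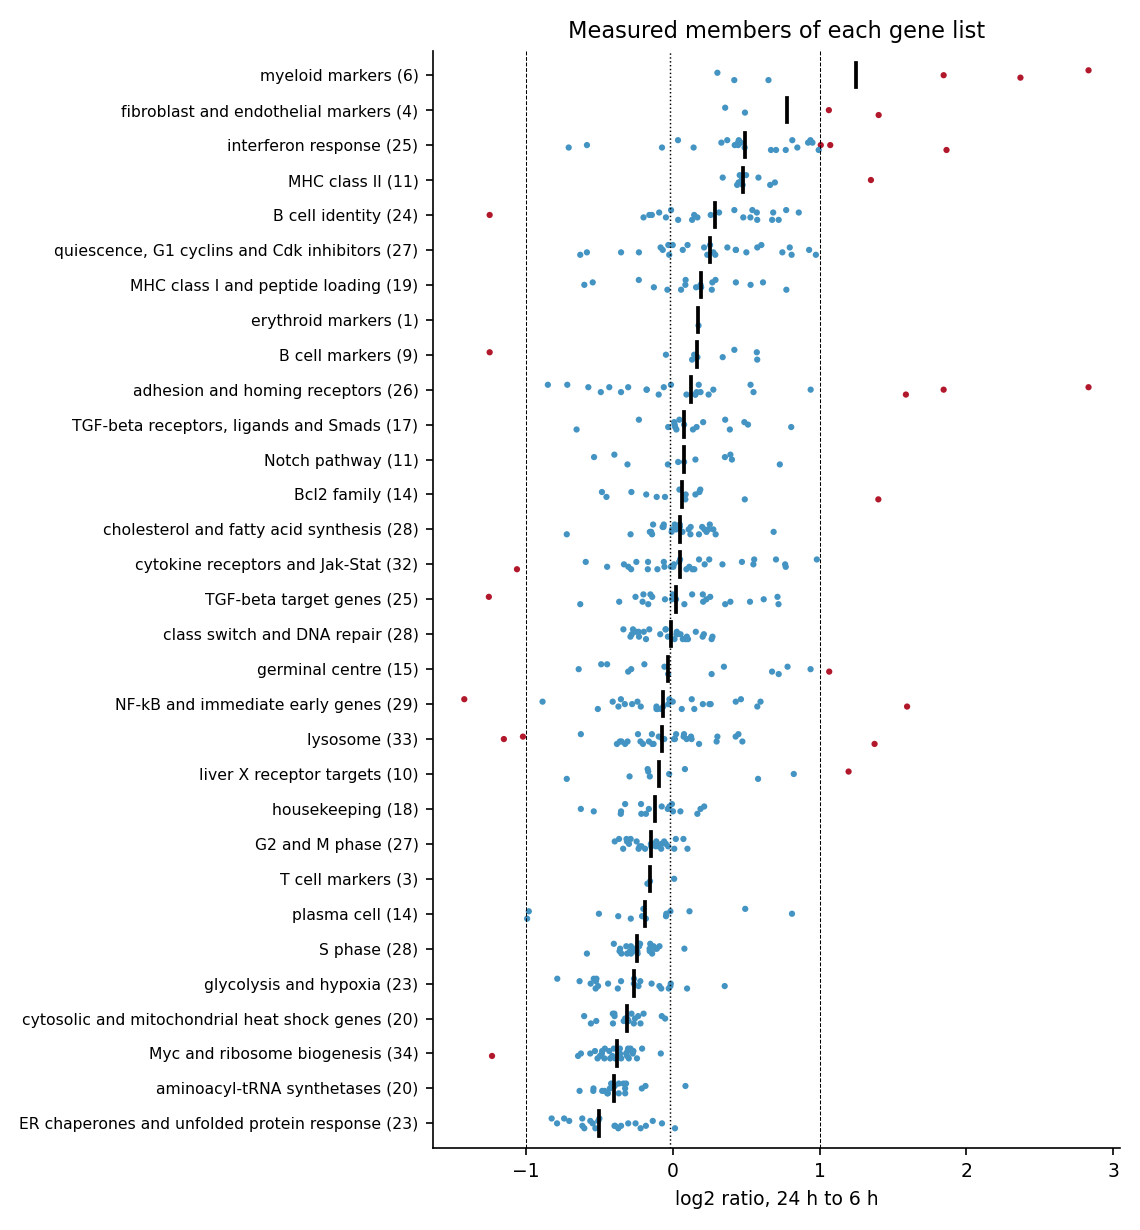
Log2 ratio of 24 h to 6 h for every measured member of 31 gene lists, with the number measured in parentheses; points are genes (red at least 2-fold), thick bars are list medians, dashed lines mark 2-fold and the dotted line is the median of all measured genes. Interferon response and MHC class II members sit mostly to the right of the dotted line, and ribosome biogenesis, tRNA synthetase and ER chaperone members to the left.

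MHC class II genes and most interferon response genes had ratios above 1 at 24 h against 6 h. The ratio was above 1 for each of the 11 MHC class II genes measured, against 47.3% of all measured genes. The list median was 0.48, while between control and 6 h it was 0.06. H2-Ob, a chain of the regulator H2-O of peptide loading (chromosome 17, 34238905 to 34245908), had 9.26, 35.4 and 90.3 CPM, 2.55-fold above 6 h (2.41 to 2.70), and was the only 2-fold member. H2-Aa, a classical chain, had 280, 290 and 403 CPM, and Cd74, the invariant chain, 2489, 2373 and 3003 CPM, so that both stood higher only at 24 h. Ciita, the master activator of these genes, had 72.0, 133 and 182 CPM and was higher at both steps. Of 19 MHC class I and peptide loading genes, 14 had a ratio above 1 (median 0.19), with Nlrc5, their activator, at 17.1, 21.5 and 36.8 CPM. In that list the chaperones Calr (1308, 1157 and 761.9 CPM) and Pdia3 (653, 606 and 415 CPM) were lower, and its summed level was 3586, 3230 and 2833 CPM.

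Among 25 interferon response genes the ratio was above 1 for 22, and 12 passed 1.5-fold and 3 passed 2-fold upward. Over all measured genes the shares were 47.3%, 6.38% and 1.89%. The list median was 0.49, against -0.02 between control and 6 h. Dhx58, an RNA sensor, had 11.3, 14.4 and 28.9 CPM, 2.01-fold above 6 h (1.83 to 2.21). Irf7, an interferon regulatory factor, had 10.6, 8.27 and 16.0 CPM, and Gbp3 (with shared reads) 13.5, 12.4 and 24.6 CPM, so that both stood highest at 24 h; the ratio of 6 h to control of Gbp3 had an interval that includes 1 (1.09-fold lower, 0.981 to 1.21). Mx1, an antiviral GTPase, and Oas2, a sensor of double-stranded RNA, were also 2-fold higher but low, at 2.38 and 1.28 CPM at 24 h. Bst2 and Isg20 went the other way, Bst2 with 53.6, 36.0 and 24.0 CPM.

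The lists for B cell identity and plasma cells had medians of opposite sign at 24 h against 6 h, with few members past 1.5-fold. Of 24 B cell identity genes, 17 had a ratio above 1 (median 0.29), and 5 passed 1.5-fold upward, while Cd22 was 2-fold lower. Over all measured genes, 47.3% had a ratio above 1, 6.38% passed 1.5-fold upward and 2.12% downward. Bach2, which represses plasma cell fate, had 12.3, 37.2 and 61.4 CPM, 1.65-fold above 6 h (1.55 to 1.75), and Pou2f2, the B cell Oct factor, 95.3, 139 and 251 CPM, 1.81-fold (1.76 to 1.87). Jchain, which joins IgA and IgM chains (chromosome 5, 88519809 to 88527897), had 454, 344 and 174 CPM, 1.97-fold lower at 24 h than at 6 h (1.91 to 2.04), and Fkbp11, an ER folding factor of secretory cells, 29.9, 20.2 and 10.1 CPM, just outside the limit at 1.99-fold. The plasma cell list as a whole had a median of -0.19 with 11 of 14 ratios below 1, where 2 members passed 1.5-fold downward and Cd38, a surface enzyme, was 1.76-fold higher (1.41 to 2.18). The germinal centre list had 7 of 15 ratios above 1 and a median of -0.03 that turned positive with total counts and TPM, though Klhl6, a germinal centre adaptor, had 3.62, 6.67 and 14.0 CPM.

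Genes of quiescence were among those just under the limit. Of 27 quiescence, G1 cyclin and Cdk inhibitor genes, 18 had a ratio above 1 (median 0.25), and 6 passed 1.5-fold upward, 2 passed it downward (Cdkn1a and Ccne1) and 0 were 2-fold apart. Over all measured genes, 47.3% had a ratio above 1, 6.38% passed 1.5-fold upward and 2.12% downward. Mxd4, a Max partner that opposes Myc, had 17.7, 29.96 and 58.9 CPM, 1.97-fold above 6 h (1.84 to 2.10), and Btg1, an antiproliferative gene, 63.5, 130 and 247 CPM, 1.90-fold (1.84 to 1.96). Ccnd2, a G1 cyclin, had 31.1, 23.8 and 41.4 CPM and so was lowest at 6 h. In the Bcl2 family, 8 of 14 had a ratio above 1, with Bmf, a pro-apoptotic member, at 3.85, 9.30 and 24.5 CPM, 2.64-fold above 6 h (2.36 to 2.95), and the list median of 0.07 turned negative without genes that share reads. Among liver X receptor targets, the cholesterol exporter Abca1 had 10.8, 55.2 and 82.6 CPM and the lipoprotein gene Apoe 139, 568 and 1006 CPM, while 6 of 10 had a ratio below 1.

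Other lists showed scattered members and medians near that of all genes. Among 32 cytokine receptor and Jak-Stat genes, the receptor Il10ra had 6.56, 9.93 and 19.6 CPM and Il6ra, the only 2-fold member, 10.6, 8.13 and 3.89 CPM. Of 26 adhesion and homing receptors, 3 were 2-fold higher (Ccr1, Itgax and Itgam) and 0 lower, and the median of 0.12 turned negative without genes that share reads. Over all measured genes, 1.89% were 2-fold higher and 0.373% lower. Notch1, the receptor, had 28.1, 64.0 and 106 CPM, in a Notch list with a median of 0.08. Of 33 lysosome genes, Ctsw, a cathepsin, was 2-fold higher with 1.42, 8.07 and 20.9 CPM, and Ctsl and Mcoln2 were 2-fold lower. Of 29 NF-kB and immediate early genes, Fosb was 2-fold higher and the chemokine Ccl4 2-fold lower, at 1.55 and 1.07 CPM at 24 h. Class switch and DNA repair genes had 14 of 28 ratios above 1 and 0 members at 1.5-fold, and cholesterol and fatty acid synthesis genes a median of 0.05 over 28 members.

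Some markers of other cell types were higher in the same 24 h library. Of 16 myeloid markers, 6 were measured, all 6 had a ratio above 1, and 3 were 2-fold higher (Itgax, Adgre1 and Itgam). Over all measured genes, 47.3% had a ratio above 1 and 1.89% were 2-fold higher. The summed level of the whole myeloid list was 26.0 CPM in control, 37.0 CPM at 6 h and 71.7 CPM at 24 h. The defining markers Cd163, Clec7a, S100a8 and S100a9 were at 0 counts in all 3 libraries, and Lyz2 had 6, 0 and 0 counts. Csf1r, the receptor for a macrophage growth factor, had 8.33, 16.4 and 25.8 CPM. Of 10 fibroblast and endothelial markers, 4 were measured and Pecam1 and Col1a1 were 2-fold higher, with a summed level of 5.00, 10.96 and 17.7 CPM. Of 8 T cell markers with a row, 3 were measured and lay within 1.5-fold, while Cd3e, Cd3d and Cd3g stayed under 1 CPM. Of 4 erythroid markers, Hba-a1 (with shared reads) was measured, at 2.93 CPM at 24 h. Whether other cells had a part in Adgre1, Itgax, MHC class II or interferon genes was not tested.

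The ratio of 24 h to 6 h also went with transcript length. Across the 10713 genes, which are not independent replicates, Spearman's rank correlation was 0.294. The shortest of 20 length bins (median 695.5 bases) had a median log2 ratio of -0.15 and the longest (median 8943 bases) one of 0.17. Genes 2-fold higher had a median length of 3012 bases and those lower one of 2462 bases, against 2849 bases for all. With the trend removed, the medians were 0.63 for MHC class II, 0.51 for the interferon response, -0.34 for Myc and ribosome biogenesis and -0.41 for ER chaperones. Of the 202 higher and 40 lower genes, 184 and 34 stayed 2-fold apart with the trend removed. Over the other scalings and this removal, some named genes fell under 2-fold in at least 1 setting. These included Cenpv (log2 ratio to -0.90), Nrros (to -0.98) and Il6ra (to -0.95), and Bach2 fell to 0.55. The part that length had in single genes was not tested.

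**Figure D4:**
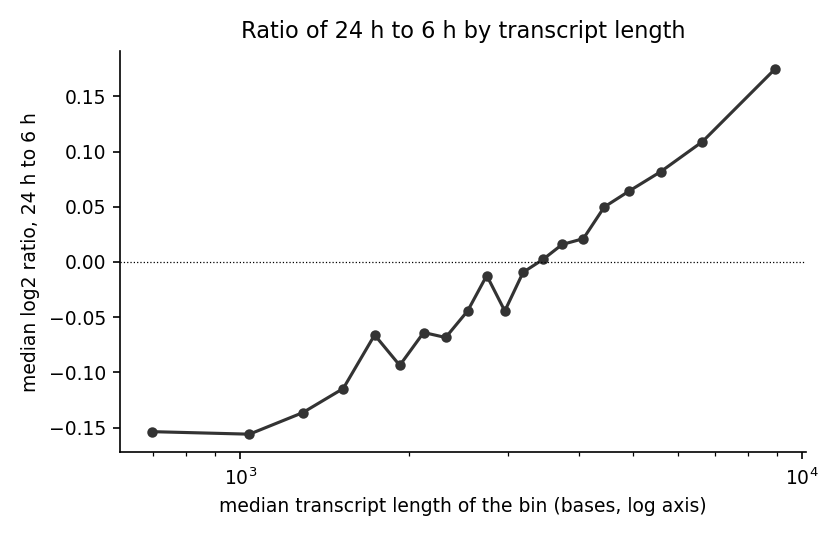
Median log2 ratio of 24 h to 6 h (vertical axis) in 20 bins of genes by transcript length (horizontal axis, bases, log scale), all measured genes, 1 library per time. The medians run from -0.15 in the shortest bin to 0.17 in the longest and cross 0 between 3187 and 3458 bases.

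Promoters of the classes were read because the genes of a class share a pattern over the libraries. RefSeq sequences (GRCm38.p6) of the 250 bases before an annotated start were matched by symbol for 8524 measured genes. The letters CAGACA, which hold the Smad-binding core CAGAC, were searched on both strands. They stood in 23 of 71 continued change higher promoters (32.4%), in 11 of 64 late onset higher promoters (17.2%), in 21 of 120 held higher promoters (17.5%) and in 15.7% of all. Among promoters of below-median GC content the letters stood in 20 of 46 continued change higher genes (43.5%) and 18.9% of all, and among the rest in 3 of 25 (12%) and 12.5%. Among genes with a single annotated start the shares were 15 of 58 (25.9%) and 12.6%. The median GC content was 55.6% for continued change higher genes and 60% for all, and a part of base composition in the shares was not tested. The 3 continued change higher genes below were taken by rank among those with the letters, a single annotated start and a window outside the gene. They were chosen for the letters. Capitals mark CAGACA or, read on the other strand, TGTCTG, and each sequence runs 5′ to 3′ on the gene's strand and ends 1 base before the start. Smyd1 lies on the minus strand (chr6:71262282-71262531), and Ptafr (chr4:132563817-132564066) and Muc4 (chr16:32735636-32735885) on the plus strand.
Smyd1: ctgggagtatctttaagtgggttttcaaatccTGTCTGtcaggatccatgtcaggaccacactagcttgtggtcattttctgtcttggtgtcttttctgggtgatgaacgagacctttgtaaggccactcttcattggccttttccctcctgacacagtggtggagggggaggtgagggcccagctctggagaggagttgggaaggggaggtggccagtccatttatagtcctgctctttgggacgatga
Ptafr: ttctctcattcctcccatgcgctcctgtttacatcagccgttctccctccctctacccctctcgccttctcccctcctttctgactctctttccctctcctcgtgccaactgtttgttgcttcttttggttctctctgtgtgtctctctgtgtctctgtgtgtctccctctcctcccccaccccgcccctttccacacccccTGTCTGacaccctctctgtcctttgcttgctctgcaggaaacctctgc
Muc4: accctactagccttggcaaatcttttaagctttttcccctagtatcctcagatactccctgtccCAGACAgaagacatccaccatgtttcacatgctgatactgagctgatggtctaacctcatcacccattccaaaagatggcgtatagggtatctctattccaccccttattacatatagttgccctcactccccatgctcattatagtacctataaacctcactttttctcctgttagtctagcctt

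Smyd1, a histone methyltransferase of striated muscle, had 0.123 CPM in control, 3.995 CPM at 6 h and 9.06 CPM at 24 h, 2.27-fold above 6 h (1.90 to 2.70). Its letters began 218 bases before the start. Ptafr, the receptor for platelet-activating factor, had 0.617, 2.44 and 5.58 CPM, 2.29-fold above 6 h (1.83 to 2.87), with the letters 48 bases before the start. Muc4, a membrane mucin, had 0.165, 0.777 and 2.24 CPM, 2.88-fold above 6 h (1.96 to 4.25), with the letters at 186 bases. All 3 genes had few counts in control, with 6, 30 and 8.

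The other letters are given beside their share over all promoters, and several rested on few promoters. CACGTG, the E-box that Myc and Max bind, stood in 2 of 71 continued change higher promoters (2.82%) and 3 of 64 late onset higher promoters (4.69%), against 10.0% of all. CCAAT stood in 16 of 64 late onset higher promoters (25%) and in 41.1% of all. The core letters of the interferon-stimulated response element, searched with any base at the spacer positions, stood in 5 of 64 late onset higher promoters (7.81%) and 3.18% of all. GTCTAGAC stood in 0.246% of all promoters and 0 of 71 continued change higher promoters, and GGCGCC in 19.7% of all and 9.86% of continued change higher promoters. Below the median GC content, GGCGCC stood in 3 of 46 continued change higher promoters (6.52%) and 11.3% of all. Among the rest it stood in 4 of 25 (16%) and 27.9%. A match describes letters in this window and does not show that a factor was bound.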

How the data were processed

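The 3 libraries held poly(A) mRNA sequenced for 50 cycles, per the labels. Build mm10 and the tools bedtools, RSEM, STAR and CASAVA 1.8.2 are listed in the submitters' processing notes. The annotation and the strand setting were not given in the sources used here. Each gene row deposited by the authors gives TPM, FPKM and an RSEM expected count. RSEM shares reads that fit several genes, and 1233 measured genes (11.5%) had a count that was not whole, pointed out here as shared reads. The deposited TPM served as an alternative, and the deposited FPKM was left unused. All counts lay in 20668 protein-coding rows, and the other 4233 rows held 0.

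Expected counts were rounded and scaled by TMM over the 3 libraries (edgeR 4.0.16, R 4.3.3: 0.946, 1.00 and 1.06 for control, 6 h and 24 h). Ratios were taken with Python 3.11.15 and scipy 1.17.1, without a test, since 1 library per group leaves no spread; the steps were tested on simulated data. A count of 0 was set to 3 counts. The libraries carry no molecular identifiers, so reads may repeat a molecule. Positions come from RefSeq on GRCm38.p6.

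The genes, the classes and the 31 lists were chosen with earlier results of these data known. The rule for named genes ranked those 2-fold apart on log2 of CPM + 1 at 24 h over 6 h: 10 each way for late onset, 8 for continued change and 6 for reversal. For held change the rank was 6 h against control, 5 each way. Up to 4 members per list, genes next to the 2-fold limit and a short list of pathway genes were added, and predicted models were left out. Some genes that the rule named are left out of the text. Alternatives were other scalings (upper quartile, total counts, TPM, and the size factors of DESeq2 1.42.0), other minimums and limits, removal of shared reads, and removal of the length trend.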

Additional observations from a re-analysis of the deposited data

How the results depend on the processing

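Alternatives moved the counts of genes mainly through the minimum and the fold limit. With a minimum of 5 CPM, 88 genes were higher and 17 lower at 24 h than at 6 h (late onset 40 and 10, continued change 47 and 5, reversal 1 and 2). With no minimum there were 962 and 239 (late onset 541 and 102, continued change 237 and 36, reversal 184 and 101). A limit of 1.5-fold gave 684 and 227 (409 and 174, 266 and 31, 9 and 22). A limit of 3-fold gave 42 and 6 (13 and 3, 27 and 1, reversal lower 2). The limit set on the nearer end of the interval gave 69 and 7 (30 and 3, 38 and 3, 1 and 1). At that limit and at 1.5-fold, 90.8% and 75.1% of the genes counted were higher, against 83.5%.

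Total counts gave 244 higher and 31 lower genes (88.7% higher) and 17 late onset lower genes, DESeq2 size factors 5 reversal higher genes, and the deposited TPM, with a minimum of 1 TPM in place of 30 counts and 1 CPM, 6 reversal higher, 9 reversal lower and 10 held lower genes. That setting moved the median gene by 0.107 (log2) relative to TMM, counted 223 higher and 36 lower genes, and shared 154 and 24 with TMM. A narrower limit on the ratio of 6 h to control gave late onset 57 and 14, reversal 11 and 9 and 17 continued change lower. A limit of 2-fold on that ratio gave continued change 67 and 5 and reversal 0 and 3. A narrower limit on the later ratio left 89 held higher genes.

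The median log2 ratio turned sign for lists near 0. With total counts it was 0.0567 for all genes, 0.0441 germinal centre, 0.0107 NF-kB, 0.00496 lysosome and 0.0648 class switch (0.00636 with upper quartile). With TPM these 5 were 0.0834, 0.0738, 0.0355, 0.0448 and 0.0951, with 0.0158 for liver X receptor targets and 0.0358 for T cell markers. With no minimum it was 0 for all genes, -0.0298 TGFb targets, 0.0114 class switch and 0.00456 T cell markers. Without shared reads it was -0.0128 adhesion, -0.0817 Bcl2 family and 0.332 liver X receptor targets, and with the length trend removed 0 for all genes. The cause was not tested. No paired analysis was possible because each group had 1 library, which also leaves no replicate to leave out. The depth at 24 h limits low genes, since 3 counts there are 0.103 CPM.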
